A study of Nicotiana tabacum with 9 samples.

Results

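Cell wall and polysaccharide genes were examined in a survey of the tobacco DNA held by 2 transcription factors. They were picked by words in the gene descriptions, such as pectin, extensin, arabinogalactan, cellulose synthase, xyloglucan, callose and beta-galactosidase, and genes described as trichome birefringence were to be left out, of which none matched. The words found 36 of the 1884 genes named in either of the authors' gene tables. Of these 36, 34 were listed for AmMIXTA and 19 for NtZFP8. The method was DNA affinity purification sequencing (DAP-seq), in which a protein with a HALO tag is made in wheat germ extract, fixed on beads and mixed with sheared genomic DNA, and the DNA that stays on it is sequenced. The 9 samples were 3 each of HALO-tagged AmMIXTA, of HALO-tagged NtZFP8 and of HALO-tagged nuclear GFP, which was the negative control, all with DNA from leaf primordia of 3 separate wild-type plants of Nicotiana tabacum, cultivar Petit Havana SR1. AmMIXTA is a snapdragon R2R3-MYB protein known for shaping epidermal cells, and NtZFP8 is a zinc finger protein of tobacco. The binding took place in a tube, so the values say which naked DNA a protein held and nothing about the activity of a gene in the plant.

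The plant cell wall is a network of cellulose fibres tied by xyloglucan and xylan, set in a gel of pectin and strengthened by glycoproteins such as extensins and arabinogalactan proteins. Enzymes that trim, cut or modify these polymers set how far a wall can stretch, and a leaf hair grows out of the epidermis by local extension of the outer wall. Callose, a different glucan, is laid down at the channels between cells and closes them.

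Each value below is the authors' peak shape score, a number without a unit that measures how well a pile of reads has the shape of a binding site relative to the GFP control. The authors' criteria were a score above 2 and a p-value under 0.05. There is 1 score per peak and protein and none per replicate, so no spread between the 3 replicates can be given and no difference between the proteins was tested. The read depth is unknown. Scores rank the peaks of 1 protein, and values for both proteins are printed next to each other as descriptions. Positions are on the sequences of the tobacco assembly used by the authors, and the position of a peak relative to exons is not given in the gene tables.

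Past the criteria, AmMIXTA had 26 of the 36 genes (72.2%, 95% Wilson interval 56.0 to 84.2), against 63.4% of all genes of either table. NtZFP8 had 17 (47.2%, 32.0 to 63.0), against 40.0% of all genes. Both proteins had 14 (38.9%, 24.8 to 55.1), against 31.4% of all genes. The shares over all genes lie inside these intervals, which cover counting error only. Restricted to genes with a description, as every member has, the shares over all genes were 64.2%, 39.5% and 31.1%. The 14 were 53.8% of the AmMIXTA members and 82.4% of the NtZFP8 members, while the shared genes over the whole tables were 49.5% and 78.5%. The GFP libraries were the control for both proteins.

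**Figure D1:**
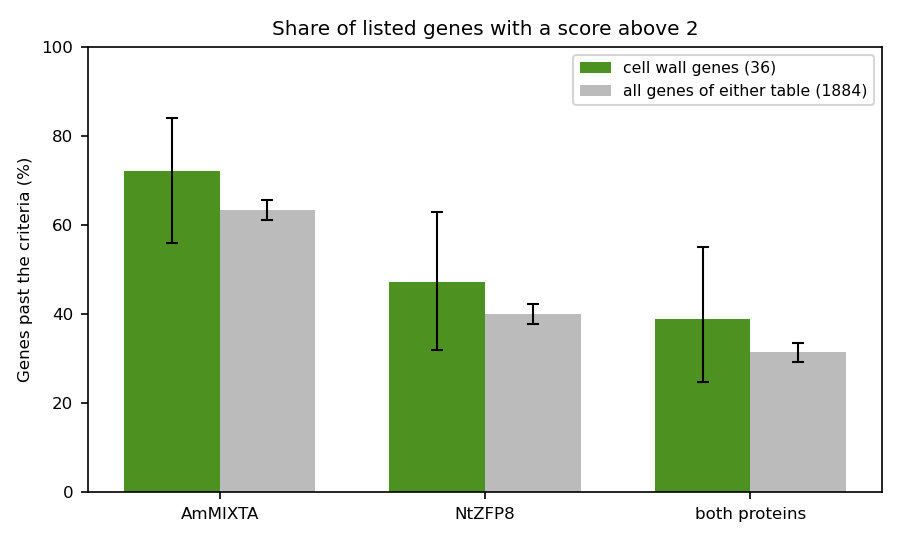
Share of listed genes with a score above 2 (%), for the 36 cell wall genes and all 1884 genes of either table, by protein and for both. Bars start at 0, and error bars are 95% Wilson intervals for counting error. The bars of the cell wall genes stand at 72.2%, 47.2% and 38.9%, and each interval takes in the bar over all genes beside it.

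The scores of the members were mostly low, as were those of all genes past the criteria. Among members past the criteria the median highest score was 2.79 for AmMIXTA (lowest 2.14, highest 14.67), while all such AmMIXTA genes had a median of 3.06. For NtZFP8 the members' median was 2.97 (lowest 2.25, highest 11.92), while all such NtZFP8 genes had 3.54. A score from just above 2 up to 2.5 was found at 10 of the 26 AmMIXTA members (38.5%, Wilson interval 22.4 to 57.5, all genes 28.8%). For NtZFP8 this held for 5 of the 17 members (29.4%, 13.3 to 53.1, all genes 24.7%). A score above 5 was reached by 5 members for AmMIXTA (19.2%, all genes 21.8%) and by 5 for NtZFP8 (29.4%, all genes 29.6%). Close to the limit, zeatin O-xylosyltransferase-like (2.14) and xyloglucan 6-xylosyltransferase 3 (2.17) lay just inside for AmMIXTA and an extensin-1-like gene (1.94) just outside. A score above 10 was reached by 3 members for AmMIXTA (11.5%, all genes 7.70%) and by 2 for NtZFP8 (11.8%, all genes 10.1%).

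**Figure D2:**
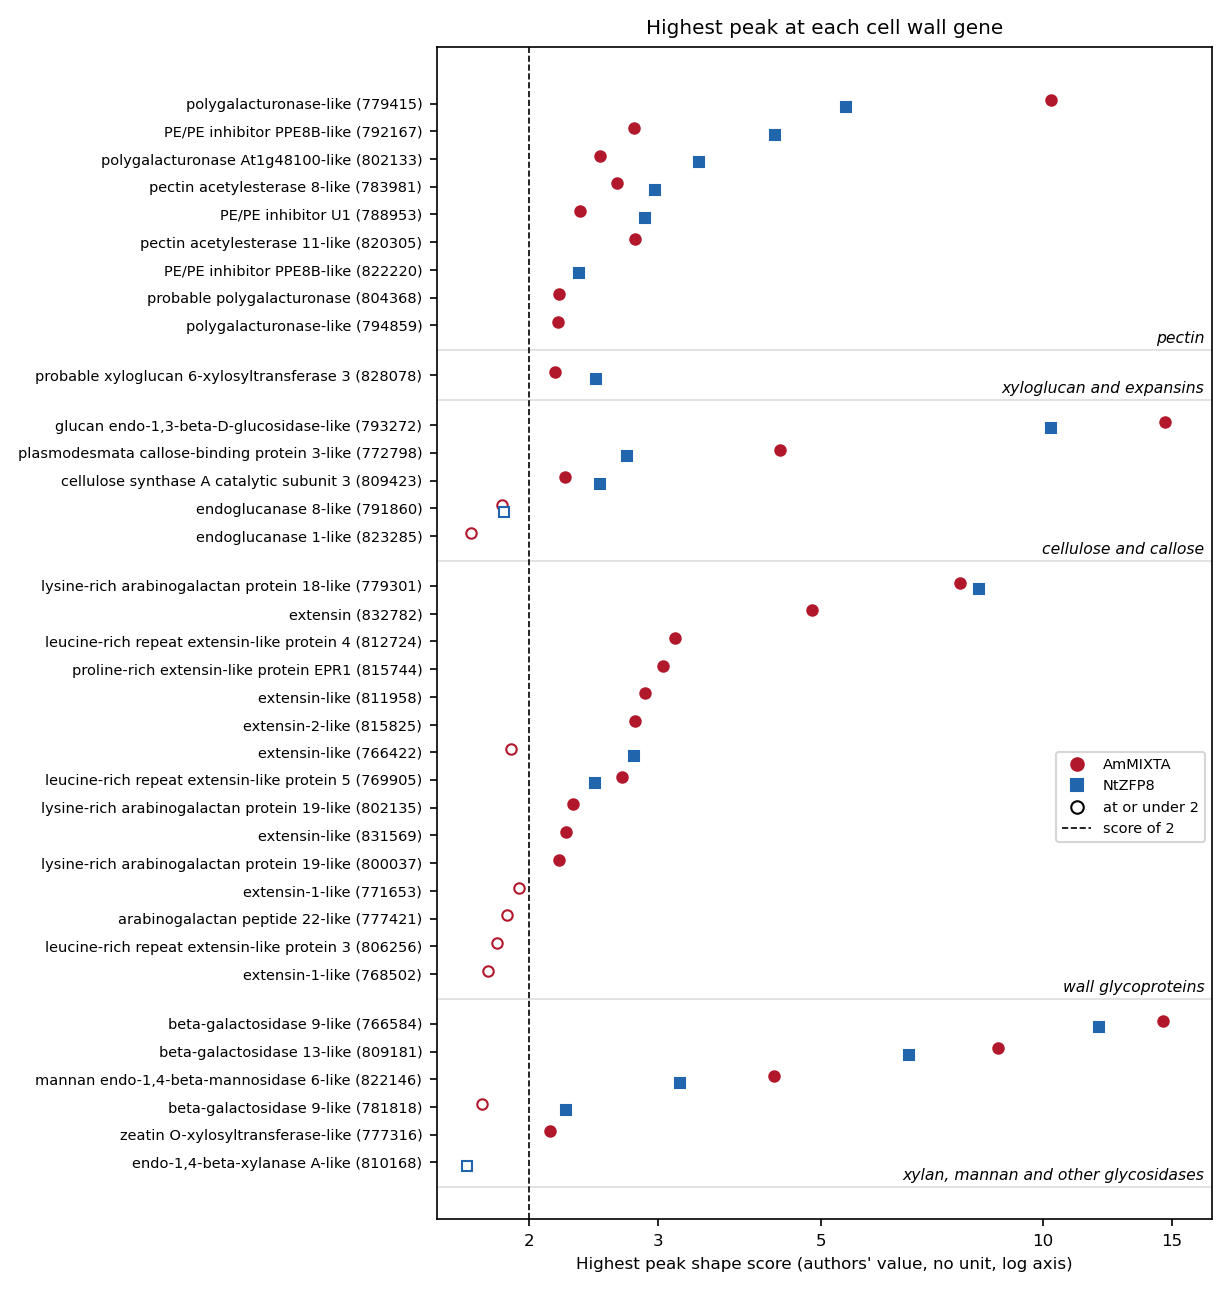
Highest peak shape score of AmMIXTA (circles) and NtZFP8 (squares) at each of the 36 cell wall genes, on a log axis, grouped by role, with the last 6 digits of the gene identifier in brackets and PE for pectinesterase. Open symbols are at or under the dashed line at 2, and a missing symbol means no peak in that protein's gene table. Most symbols lie between 2 and 5, and most wall glycoproteins have a circle without a square.

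Pectin genes numbered 9. AmMIXTA had 8 of them past the criteria (88.9%, Wilson interval 56.5 to 98.0), NtZFP8 had 6 (66.7%, 35.4 to 87.9), and 5 were shared (55.6%, 26.7 to 81.1). These intervals take in the 63.4%, 40.0% and 31.4% of all genes. The highest was polygalacturonase-like (LOC107779415), of a family that cuts the pectin backbone, with a score of 10.26 for AmMIXTA (180058 to 180490 of NW_015905149.1) and 5.41 for NtZFP8 (180261 to 180496). Among genes past the criteria it ranked 88 of 1195 for AmMIXTA and 189 of 754 for NtZFP8. A second AmMIXTA peak at this gene, at 180827 to 181007, scored 1.79 and did not pass.

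The other 4 shared pectin genes had lower scores. Pectinesterases remove methyl groups from pectin, and those named with an inhibitor carry an inhibitor domain as well. Pectinesterase/pectinesterase inhibitor PPE8B-like (LOC107792167, NW_015920770.1) had 2.78 for AmMIXTA (24139 to 24504) and 4.32 for NtZFP8 (24236 to 24545). Pectinesterase/pectinesterase inhibitor U1 (LOC107788953, NW_015916480.1) had 2.35 for AmMIXTA (40230 to 40717) and 2.88 for NtZFP8, whose peak (40283 to 40504) lay wholly inside that of AmMIXTA. Polygalacturonase At1g48100-like (LOC107802133, NW_015935134.1) had 2.50 (44823 to 45192) and 3.41 (44941 to 45207). Pectin acetylesterase 8-like (LOC107783981, NW_015910462.1), of a family that removes acetyl groups from pectin, had 2.64 for AmMIXTA (178976 to 179297) and 2.97 for NtZFP8 (179071 to 179309). None of these 4 reached a score of 5 for either protein.

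The remaining pectin genes had a peak for 1 protein. Pectin acetylesterase 11-like (LOC107820305) had 2.79, probable polygalacturonase (LOC107804368) 2.20 and another polygalacturonase-like gene (LOC107794859) 2.19, all for AmMIXTA. A second PPE8B-like gene (LOC107822220) had 2.34 for NtZFP8, at 697 to 997 of NW_015830553.1, where no AmMIXTA peak was listed. All 4 polygalacturonases thus passed for AmMIXTA and 2 for NtZFP8, while all 3 pectinesterases passed for NtZFP8 and 2 for AmMIXTA. These counts are too small to set the families apart.

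The only xyloglucan gene was probable xyloglucan 6-xylosyltransferase 3 (LOC107828078, NW_015849535.1), which adds xylose side chains to the glucan backbone. It had 2.17 for AmMIXTA (20633 to 21025) and 2.47 for NtZFP8 (20726 to 21035). No expansin, COBRA-like, fasciclin, pectate lyase or galacturonosyltransferase gene was found by the words in either table.

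Of 5 genes of cellulose and callose, 3 passed for both proteins (60.0%, Wilson interval 23.1 to 88.2, all genes 31.4%). The same 3 were the only ones past for either protein, against 63.4% of all genes for AmMIXTA and 40.0% for NtZFP8. Glucan endo-1,3-beta-D-glucosidase-like (LOC107793272), of a family of enzymes that cut callose-type glucans, had the highest AmMIXTA score among the members. Its score was 14.67 for AmMIXTA (34961 to 35314 of NW_015922253.1, rank 43 of 1195) and 10.26 for NtZFP8 (35028 to 35394, rank 70 of 754). PLASMODESMATA CALLOSE-BINDING PROTEIN 3-like (LOC107772798), of a family that binds callose at the channels between cells, had 4.40 for AmMIXTA (21852 to 22286 of NW_015895765.1) and 2.72 for NtZFP8 (22010 to 22320). Cellulose synthase A catalytic subunit 3 (LOC107809423), whose namesake in Arabidopsis makes cellulose of the primary wall, had 2.24 for AmMIXTA (109931 to 110320 of NW_015804592.1) and 2.50 for NtZFP8 (110029 to 110337). The cellulose synthase gene was near the limit for both proteins. Over all 14 shared members, the AmMIXTA score was the higher value at 7, against 57.4% of all genes past for both.

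Endoglucanases cut cellulose-type glucans, and neither of the 2 in the tables passed. Endoglucanase 8-like (LOC107791860) had 1.84 for AmMIXTA and 1.85 for NtZFP8, with centres 21 bp apart, and endoglucanase 1-like (LOC107823285) had 1.67 for AmMIXTA. On the sequence of endoglucanase 8-like (NW_015920338.1), each full peak list held 4 further peaks within 5000 bp that the gene tables give to no gene. The highest of these were an AmMIXTA peak of 4.33 (24259 to 24778) and an NtZFP8 peak of 4.58 (22810 to 23224).

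The wall glycoproteins were the largest group with 15 genes. AmMIXTA had 10 past the criteria (66.7%, Wilson interval 41.7 to 84.8), NtZFP8 had 3 (20.0%, 7.05 to 45.2), and 2 were shared (13.3%, 3.74 to 37.9). The AmMIXTA share was near the 63.4% of all genes, and the other intervals take in the 40.0% and 31.4% of all genes. Over the other 21 members, AmMIXTA had 16 past the criteria (76.2%, 54.9 to 89.4), an interval that takes in the 63.4%. NtZFP8 had 14 (66.7%, 45.4 to 82.8), and 12 were shared (57.1%, 36.5 to 75.5). The intervals for NtZFP8 and for shared genes lie above the 40.0% and 31.4% of all genes. However, these 21 genes are what remains after the group with the lowest NtZFP8 share is set aside. The intervals therefore cannot show that the 21 differ from all genes. Over all 36 members the intervals (32.0 to 63.0 for NtZFP8, 24.8 to 55.1 for shared genes) take in those shares. The difference between the groups was seen in the data and was not tested. Extensins and arabinogalactan proteins are rich in repeated proline motifs and occur as families of similar genes, and whether reads were shared between such copies was not tested.

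Lysine-rich arabinogalactan protein 18-like (LOC107779301) stood apart from the rest of this group. It had 7.72 for AmMIXTA (17955 to 18316 of NW_015797442.1, rank 144 of 1195) and 8.19 for NtZFP8 (18055 to 18347, rank 105 of 754). Arabinogalactan proteins are heavily glycosylated proteins of the wall and the cell surface. A further list of 618 peaks, which is the same in the workbooks of both proteins and names neither, gives distances to this gene. Its 3 peaks there carry the label 5′ gene, and their distances all put an edge of the gene at position 15880. From that edge, the AmMIXTA peak lay 2075 to 2436 bp away and the NtZFP8 peak 2175 to 2467 bp away. The gene's strand was not checked, so whether the peaks lie upstream of the gene is not settled here. The peak of the unnamed list that overlaps them is labelled Promoter, at a distance of 2169 bp. The others, at 3418 and 5088 bp, carry no such label.

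The full lists held 4 more peaks of each protein on this sequence, up to 5332 bp from that edge, none given to a gene in the tables. Each of the 5 AmMIXTA peaks overlapped 1 of the 5 NtZFP8 peaks, by 209 to 289 bp. From the gene outwards, the AmMIXTA scores were 7.72, 4.02, 4.12, 9.30 and 7.58. In the same order the NtZFP8 scores were 8.19, 4.64, 5.38, 10.11 and 9.39. The highest peak of each protein was the fourth, and there the centres lay 244 bp apart, while at the others they lay 10 to 52 bp apart.

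**Figure D3:**
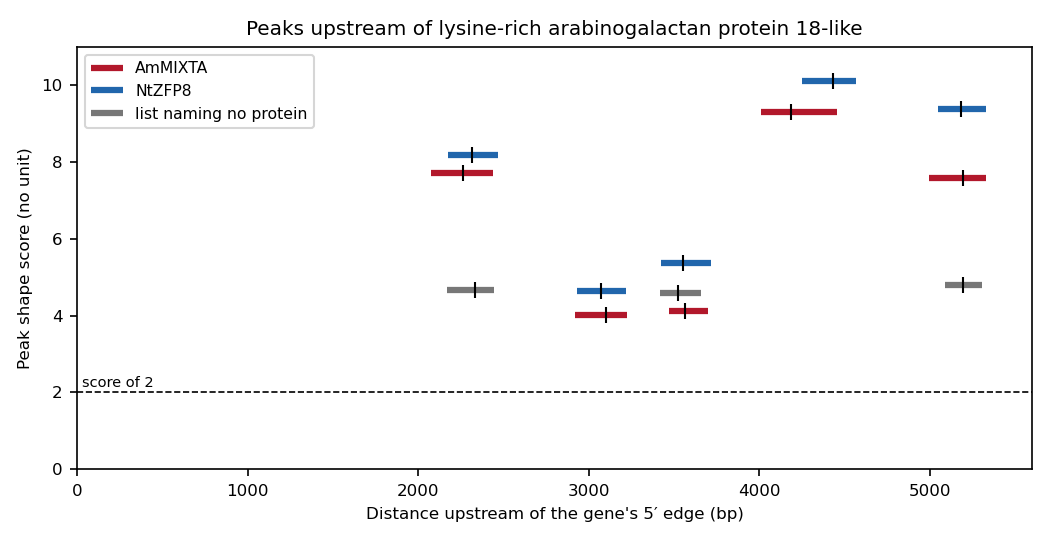
Peaks near lysine-rich arabinogalactan protein 18-like, as distance from an edge of the gene (bp) against peak shape score. The figure calls this the 5′ edge and the distance upstream, after the label 5′ gene, and the gene's strand was not checked. Horizontal lines span each peak, ticks mark centres, and colours give the list. AmMIXTA and NtZFP8 have 5 peaks each at matching places, with scores from 4.02 to 10.11, and the list naming no protein has 3.

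The second shared glycoprotein gene was leucine-rich repeat extensin-like protein 5 (LOC107769905, NW_015795565.1), of a family of wall proteins that join a leucine-rich repeat domain to an extensin domain. Its AmMIXTA peak scored 2.68 (2702 to 3117). Of its 3 NtZFP8 peaks, the one that overlapped it scored 2.23 (2937 to 3123), a higher one 1683 bp away from its centre scored 2.46 (4383 to 4733), and the last scored 1.77. It was the only member with more NtZFP8 peaks than AmMIXTA peaks among the genes listed for both.

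Extensins, which are cross-linked to stiffen the wall, made up most of the AmMIXTA-only genes of this group. Of 11 genes described as extensin or extensin-like, 7 passed for AmMIXTA (63.6%, all genes 63.4%), 2 for NtZFP8 (18.2%, Wilson interval 5.14 to 47.7, all genes 40.0%) and 1 for both. Extensin (LOC107832782) had 4.86 for AmMIXTA at 71841 to 72237 of NW_015864888.1 and a weaker peak of 1.83 close by. Leucine-rich repeat extensin-like protein 4 (LOC107812724) had 3.16, proline-rich extensin-like protein EPR1 (LOC107815744) had 3.05, and the extensin-like genes LOC107811958 and LOC107831569 had 2.88 and 2.25. Extensin-2-like (LOC107815825) had 3 AmMIXTA peaks, with scores of 2.79, 2.72 and 1.66, spread from 1639 to 7776 of NW_015812015.1. The one extensin-like gene past for NtZFP8 alone (LOC107766422) had 2.78 there and 1.89 for AmMIXTA, with centres 3 bp apart. Both lysine-rich arabinogalactan protein 19-like genes were found for AmMIXTA, with 2.30 (LOC107802135) and 2.20 (LOC107800037).

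Under the criteria for AmMIXTA and absent from the NtZFP8 table were a pair of extensin-1-like genes (LOC107771653, 1.94, and LOC107768502, 1.76), arabinogalactan peptide 22-like (LOC107777421, 1.87) and leucine-rich repeat extensin-like protein 3 (LOC107806256, 1.81).

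Among the 6 genes of xylan, mannan and other glycosidases, 4 passed for AmMIXTA (66.7%), 4 for NtZFP8 (66.7%) and 3 for both. The Wilson interval for shared genes was 18.8 to 81.2. This interval and those for each protein take in the 63.4%, 40.0% and 31.4% of all genes. The AmMIXTA genes include zeatin O-xylosyltransferase-like, an accidental match described below. Beta-galactosidases take terminal galactose off wall polysaccharides. Beta-galactosidase 9-like (LOC107766584, NW_015886710.1) had 14.59 for AmMIXTA (8505 to 8863, rank 44 of 1195) and 11.92 for NtZFP8 (8583 to 8884, rank 52 of 754), the highest NtZFP8 score among the members. Beta-galactosidase 13-like (LOC107809181, NW_015947695.1) had 8.69 (9699 to 10071) and 6.58 (9826 to 10060). Mannan endo-1,4-beta-mannosidase 6-like (LOC107822146, NW_015830366.1), which cuts mannans, had 4.31 (22735 to 23029) and 3.21 (22807 to 23021). The unnamed list labels a peak inside these, at 22827 to 22995, as Gene with a distance of 0.

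A second beta-galactosidase 9-like gene (LOC107781818) had 1.73 for AmMIXTA and 2.25 for NtZFP8, at the same place within 13 bp. Endo-1,4-beta-xylanase A-like (LOC107810168), which cuts the xylan backbone, had 1.65 for NtZFP8. Zeatin O-xylosyltransferase-like (LOC107777316, 2.14 for AmMIXTA) matched the word xylosyl but acts on a hormone of the cytokinin class, and without it AmMIXTA had 25 members past the criteria.

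Tobacco is an allotetraploid and often holds several genes of 1 description. Of the same-named genes among the members, the beta-galactosidase 9-like genes were far apart in score (14.59 and 1.73 for AmMIXTA, 11.92 and 2.25 for NtZFP8). The polygalacturonase-like genes had 10.26 and 2.19 for AmMIXTA, and the second of them was absent from the NtZFP8 table. The PPE8B-like genes had 4.32 and 2.34 for NtZFP8, and the second was absent from the AmMIXTA table. The arabinogalactan protein 19-like genes (2.30 and 2.20) and the extensin-1-like genes (1.94 and 1.76) were close to each other for AmMIXTA. The 3 genes described as extensin-like had 2.88, 2.25 and 1.89 for AmMIXTA, and only the last of them (LOC107766422) was in the NtZFP8 table, at 2.78. Whether the same-named genes are copies from the parent species is not given in the gene tables.

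The placement of the peaks was compared at the 14 genes past the criteria for both proteins. The closest peaks overlapped at all 14, against 96.5% of all genes past for both, and a median of 94.7% of the NtZFP8 peak was covered (lowest 78.2%). The overlaps ran from 181 to 300 bp. Member peaks past the criteria had a median width of 382 bp for AmMIXTA and 294 bp for NtZFP8, near those of all peaks (385 and 286 bp).

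Centres of the closest peaks lay a median of 26.5 bp apart at the members (lowest 1, highest 116), against 13 bp at all genes past for both. They were within 50 bp at 9 of the 14 members (64.3%, Wilson interval 38.8 to 83.7), against 87.8% of all such genes. The centres that lay further apart belonged to the glucosidase-like gene (116 bp), leucine-rich repeat extensin-like protein 5 (97 bp), beta-galactosidase 9-like (73 bp), polygalacturonase-like (61 bp) and arabinogalactan protein 18-like (52 bp). These include 4 of the 5 members with a score above 5 for both proteins, and the fifth, beta-galactosidase 13-like, had centres 12 bp apart. Over all genes with scores above 5 for both, 90.4% had centres within 50 bp, against 20.0% of these 5 members (Wilson interval 3.62 to 62.4). The limit of 5 was not planned for the distances, 5 genes are few, and no difference in distance was tested. At the smallest distance, cellulose synthase A catalytic subunit 3 had its centres 1 bp apart. The centre does not stand at the same place within the peaks of the lists. The median length from start to centre was 231 bp for AmMIXTA peaks and 138 bp for NtZFP8 peaks, and from centre to end it was 152 and 143 bp. The part of this asymmetry in the distances was not tested.

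**Figure D4:**
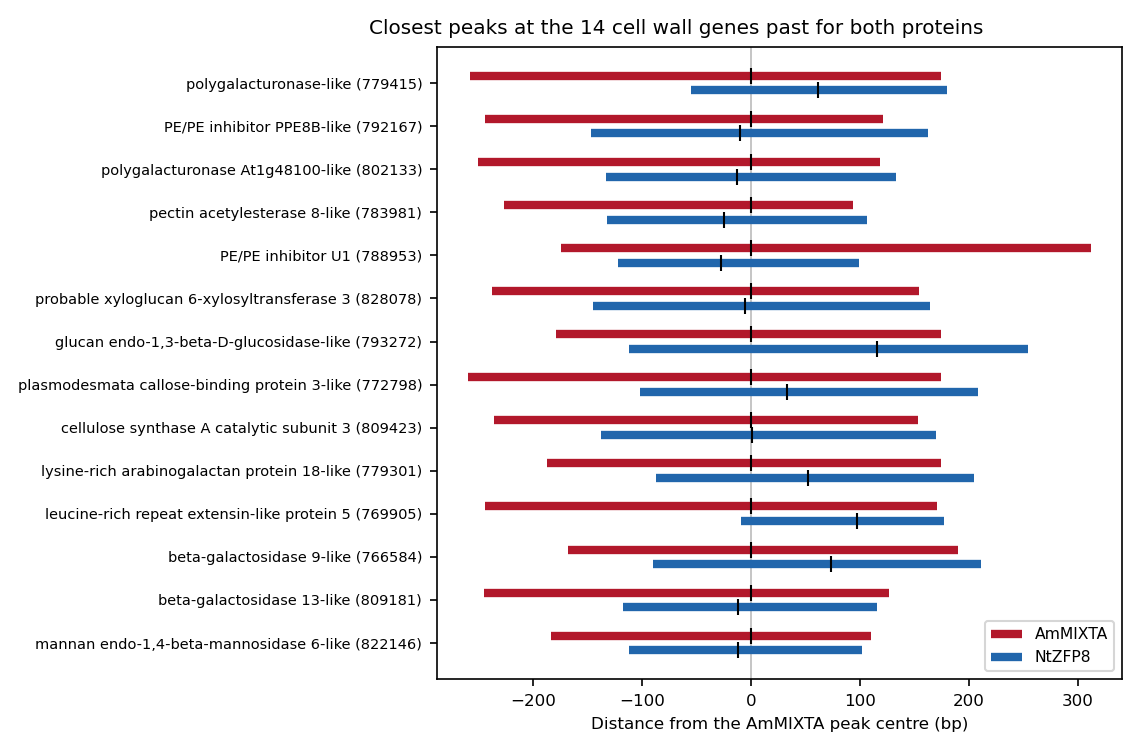
Closest AmMIXTA and NtZFP8 peaks at the 14 cell wall genes past the criteria for both proteins, drawn as distance from the AmMIXTA centre (bp), with ticks at the centres. Every NtZFP8 line overlaps its AmMIXTA line, and the NtZFP8 centres range from 28 bp on one side to 116 bp on the other.

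Genes past for 1 protein were looked up in the full list of the other. At none of the 12 AmMIXTA-only members was an NtZFP8 peak listed anywhere on the same sequence, at any score, while 74.5% of all AmMIXTA-only genes had none there. Of these 12 genes, 8 were wall glycoproteins. The highest score among the 12 was 4.86, at extensin, and their median was 2.54, close to the 2.57 over all AmMIXTA-only genes. Of the 3 NtZFP8-only members, 2 had an AmMIXTA peak under the criteria at the same place. The lists hold only peaks with a p-value under 0.05, so a weaker signal would not appear.

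A few peaks were given to a neighbouring gene as well, so they cannot be tied to the cell wall gene alone. This held for 6 of the 27 AmMIXTA member peaks past the criteria (22.2%) and for 2 of the 18 NtZFP8 member peaks (11.1%). The matching shares over all peaks are not given here, so the counts are no trait of the members. The peak of each protein at beta-galactosidase 13-like was shared with the replication gene MCM10 homolog (LOC107809180). That at the mannosidase gene was shared with acyl-CoA--sterol O-acyltransferase 1-like (LOC107822145). For AmMIXTA, this also touched extensin-2-like, LOC107802135 and LOC107804368, whose partners are uncharacterized.

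Other cell wall genes, outside the words above, were counted with a second set of words. These were for wall proteins, wall-linked kinases, oxidases, and enzymes that add, remove or cut sugars. Of 24 such genes, AmMIXTA had 14 past the criteria (58.3%, Wilson interval 38.8 to 75.5, all genes 63.4%). NtZFP8 had 4 (16.7%, 6.68 to 35.9), an interval below the 40.0% of all genes. Its share of the 36 members was 47.2%. Both proteins shared 3 (12.5%, 4.34 to 31.0), an interval just below the 31.4% of all genes. Without glutathione peroxidase homolog BsaA-like, an accidental match, 3 of 23 were shared (Wilson interval 4.54 to 32.1), and this interval takes in the 31.4%. The NtZFP8 interval without that gene (6.98 to 37.1) stayed below the 40.0%. These differences were not tested. The words were chosen with earlier results of these data known, and genes of 1 family among the 24 are not independent draws. The intervals cover counting error only and cannot show that this list differs from all genes or from the members. The highest was probable arabinosyltransferase ARAD1 (LOC107770982), whose Arabidopsis namesake builds arabinan side chains of pectin, with 8.97 for AmMIXTA and 7.71 for NtZFP8. For AmMIXTA it was followed by 14 kDa proline-rich protein DC2.15-like (LOC107800979, 4.35) and wall-associated receptor kinase 2-like (LOC107776028, 4.05), both absent from the NtZFP8 table. For NtZFP8 the next were the proline-rich receptor-like kinase PERK6 (LOC107828864, 2.21 for AmMIXTA and 2.92 for NtZFP8) and alpha-galactosidase 1-like (LOC107770900, 2.45 and 2.59). All 8 glycine-rich cell wall proteins were listed for AmMIXTA, as were 88.2% of all genes, and 3 of them (37.5%, Wilson interval 13.7 to 69.4) passed the criteria, against 63.4% of all genes. None of the 8 was listed for NtZFP8, while 51.7% of all genes were. Among these 24, glutathione peroxidase homolog BsaA-like (LOC107813066, 1.98 for AmMIXTA) matched by accident.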

How the data were processed

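DAP-seq was done with 3 replicates per protein. Per the labels' protocols, each protein replicate on 20 µl of beads met 1000 ng of DNA for 1 h at 25 °C. Per the series' design text, reads were mapped to the tobacco genome of Sierro and colleagues, with 98% mapped on average. No label or header names the aligner, the peak caller or how replicates were joined (not given in the sources used here). The peak shape score and the p-value of each peak are the authors' deposited values, NtZFP8 scores with 2 decimals. Genes, their descriptions and scores came from the deposited gene tables of the authors, whose assignment rule is not given, and regions from the deposited full lists, joined on sequence and centre. Regions past a sequence end were trimmed to the sequence.

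Blank NtZFP8 descriptions, among them those of 6 members, were filled from the AmMIXTA table. A gene with a blank NtZFP8 description and no AmMIXTA entry could not be matched by the words. This limits the NtZFP8-only members that could be found, and so bears on the 82.4% of NtZFP8 members that were shared. How many such genes there are is not given here. A gene counts as described where its text does not start with uncharacterized. Members and lists were chosen with earlier results of these data known. Peaks overlapped from 1 bp, and the overlap code was tested on simulated intervals. No test was made. All members past the criteria are named, with positions for those past for both and the highest of each protein, and members under it are named with scores. Of the 36 members, 29 have an identifier in the RefSeq table of assembly ASM71507v2, which was used for nothing else. Promoter words and sequences were not analysed here. Python 3.11.15, pandas 2.3.3, scipy 1.17.1 and matplotlib 3.10.9 were used.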

Additional observations from a re-analysis of the deposited data

Results flagged for a closer look

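The list that names no protein was left out of the counts above, and 2 members have peaks in it. It holds 3 peaks near lysine-rich arabinogalactan protein 18-like (LOC107779301), with scores of 4.67, 4.59 and 4.80. Each of these overlaps a peak of AmMIXTA and a peak of NtZFP8. Its peak at mannan endo-1,4-beta-mannosidase 6-like (LOC107822146) has a score of 1.72, under the criteria. These peaks were flagged because they lie in data that no comparison used, and which protein they belong to was not analysed here.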

How the results depend on the processing

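With a score above 3, the members numbered 10 for AmMIXTA, 8 for NtZFP8 and 6 for both, all 6 with overlapping peaks. The median scores became 6.29 for AmMIXTA and 5.995 for NtZFP8, which follows from the higher limit. The median distance between centres became 56.5 bp over the 6 genes past for both, against 26.5 bp over the 14. Shares and distances of all genes at this limit are not given here. Whether these changes are particular to the members is therefore not known. With blank descriptions left blank, 11 members were found for NtZFP8 and 10 for both. Counting centres within 50 bp in place of overlap left 9 of 14 genes. At any listed score, the counts were 34, 19 and 17, with overlapping peaks at all 17. An overlap of 50% of each peak left 12. Scores of exactly 2, regions past a sequence end, partner peaks of the full lists and the accidental match changed no count by more than 1. No paired analysis was possible because the lists hold no value per replicate, and for the same reason no replicate could be left out.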
